A study of Mus musculus with 3 samples.

Results

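The C1q-positive macrophages of the mouse ovary were taken as the cells that the authors deposited under the name Macrophage/Monocyte I and that held 5 or more UMIs summed over C1qa, C1qb and C1qc. A UMI (unique molecular identifier) stands for 1 captured RNA molecule. Members were thus chosen by their measured C1q level, which is given as a description and supports nothing. The rule found 1562 of 14353 cells, of which 1337 came from young, 88 from aged and 137 from aged, metformin-treated ovaries. All animals were C57BL/6 females. Young mice were 3 months old. The metformin mice drank the drug at 350 mg/kg/day for 6 months, starting at 14 months of age. Aged mice had no drug, and their age is not stated for these cells. There were 5 mice in a group, and the left ovaries of 3 of them were joined into 1 suspension before dissociation. Each condition is therefore 1 sample, and 3 multiplexed 10x libraries, pools A, B and C, served as technical repeats. No difference between conditions could be tested, and every interval given is a 95% interval for counting error only.

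C1q is the recognition molecule of the classical complement pathway, built from the A, B and C chains, and it binds antibody complexes and dying cells. Unlike most complement proteins, which come from the liver, C1q is made largely by tissue macrophages. Macrophages of the ovary are known for clearing atretic follicles and regressing corpora lutea, for shaping vessels and matrix, and for presenting antigen on MHC class II. Metformin is an antidiabetic biguanide with known effects on complex I of the respiratory chain.

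The markers that go with the name were present. C1qa had a UMI in 98.5% of young, 100.0% of aged and 95.6% of metformin members, but C1qa is part of the rule. Pf4, a chemokine also known from platelets, had a UMI in 82.1%, 70.5% and 70.1% of them, Ms4a7, a membrane protein of mature macrophages, in 91.9%, 90.9% and 83.2%, and Mrc1, the mannose receptor, in 81.3%, 68.2% and 66.4%. In T cell/NKT cells, a class that should lack these genes, the shares were 0.718% for Pf4, 0.821% for Ms4a7 and 0.410% for Mrc1, at a median depth of 2018 UMIs per cell against 6128.5 in members. Other genes known from long-lived resident macrophages were scarce. Lyve1 had a UMI in 1.35% of young members and Timd4 in 0.224%, while Folr2 was found in 13% and Cd163 in 3.81%. Ccr2, the chemokine receptor of monocytes newly come from blood, had a UMI in 35.2% of young, 35.2% of aged and 37.2% of metformin members, against 26.3% of T cell/NKT cells. How long these cells stay in the ovary was not measured, so they are called C1q-positive macrophages here.

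The genes of the 3 chains lie side by side on the minus strand of mouse chromosome 4 (GRCm38, GENCODE vM21), with C1qa at chr4:136895917-136898803, C1qb at chr4:136880129-136886187 and C1qc at chr4:136889804-136893065. The bases just before the starts of C1qb and C1qc are shown because their transcripts kept close to constant proportions in every condition. Sequences are from RefSeq on GRCm38.p6, and C1qc is cut to the bases before its longest GENCODE transcript. Capitals mark GAGGAA, the purine-rich core bound by ETS factors such as Spi1, searched on both strands.
C1qb promoter, chr4:136886201-136886450, minus strand: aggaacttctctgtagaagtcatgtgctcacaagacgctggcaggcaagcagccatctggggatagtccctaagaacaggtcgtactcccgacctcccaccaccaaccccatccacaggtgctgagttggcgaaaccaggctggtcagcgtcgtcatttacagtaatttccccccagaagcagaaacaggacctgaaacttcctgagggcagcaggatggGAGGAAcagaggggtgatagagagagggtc
C1qc promoter, chr4:136893066-136893164, minus strand: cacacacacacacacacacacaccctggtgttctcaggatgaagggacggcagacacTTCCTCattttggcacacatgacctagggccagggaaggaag
In C1qb the match begins 30 bases before the RefSeq start, and in C1qc it lies on the other strand, 193 bases before. This short motif was in 23.2% of 32851 RefSeq windows of 250 bases, so a match is a description only.

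Promoters of 3 further genes are shown because these genes were among the antigen presentation and protease genes that differed between conditions. In H2-Aa and H2-Eb1, which encode MHC class II chains, capitals mark CTGATTGG, the Y box form of the CCAAT motif, found in 3.83% of the windows. In Mmp13, a collagenase gene, capitals mark TGACTCA, the site of Fos and Jun dimers, found in 4.46%. All were searched on both strands, and none of the marked motifs overlap.
H2-Aa promoter, chr17:34287824-34288073, minus strand: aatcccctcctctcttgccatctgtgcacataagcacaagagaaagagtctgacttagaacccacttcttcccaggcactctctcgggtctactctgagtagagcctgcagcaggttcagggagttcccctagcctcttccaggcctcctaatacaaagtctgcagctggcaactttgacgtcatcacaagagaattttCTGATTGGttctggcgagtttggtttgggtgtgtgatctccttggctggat
H2-Eb1 promoter, chr17:34305617-34305866, plus strand: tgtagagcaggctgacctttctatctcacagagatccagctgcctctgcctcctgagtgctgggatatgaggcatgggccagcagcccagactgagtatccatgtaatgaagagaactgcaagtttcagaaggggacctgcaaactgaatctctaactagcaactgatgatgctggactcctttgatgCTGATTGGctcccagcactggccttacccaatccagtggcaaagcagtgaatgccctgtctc
Mmp13 promoter, chr9:7272264-7272513, plus strand: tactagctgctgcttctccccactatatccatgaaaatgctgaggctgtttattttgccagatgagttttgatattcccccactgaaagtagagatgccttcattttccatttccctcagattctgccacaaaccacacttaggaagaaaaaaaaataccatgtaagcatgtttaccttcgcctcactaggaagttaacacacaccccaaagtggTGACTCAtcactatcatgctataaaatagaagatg
The marked bases begin 51 bases before the start of H2-Aa, 62 before that of H2-Eb1 and 35 before that of Mmp13.

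Members held 9361017 UMIs in young, 468125 in aged and 846519 in metformin cells, with medians of 6310, 5032 and 5607 per cell. The median mitochondrial percent was 2.14, 1.88 and 2.32. The highest total of a member was 33506 UMIs in young, 13846 in aged and 38071 in metformin cells. Of all cells, 26 barcodes occurred in more than 1 pool, and 1 of these was a member's barcode.

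The threshold fell in a gap. Of 2094 cells of the class, 444 had no C1q UMI, 88 had 1 to 4, 64 had 5 to 14 and 1498 had 15 or more. The 5th, 50th and 95th percentiles of members were 17, 95 and 198 C1q UMIs. The 7 cells with 4 C1q UMIs held 26.0 CPM of Pf4 and 1328 of Ccr2, and the 7 with 5 UMIs held 237 of Pf4 and 421 of Ccr2. CPM here means UMIs per 1000000 of the summed UMIs of a group of cells.

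C1q-positive macrophages made up a much smaller share of aged than of young ovarian cells. They were 17.5% of young cells (1337 of 7620, interval 16.7 to 18.4), 2.95% of aged cells (88 of 2979, 2.38 to 3.63) and 3.65% of metformin cells (137 of 3754, 3.07 to 4.30). Pools A, B and C gave 18.5%, 16.4% and 17.7% in young, 2.12%, 2.77% and 4.42% in aged, and 3.66%, 3.39% and 3.82% in metformin ovaries. No aged or metformin pool came near a young pool. The aged share was 0.168 times the young share (0.134 to 0.209), from 0.115 times in pool A to 0.250 times in pool C. The metformin share was 1.24 times the aged share (0.938 to 1.63), with 1.73, 1.23 and 0.865 times in the 3 pools, so its direction differed between repeats. Without pool A it was 1.03 times. These are shares of cells left after straining, which took out oocytes, and after flow sorting with a gate that no label describes.

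The remaining cells of the same class, called C1q-low here, gave similar shares in young and aged ovaries. They were 4.09% of young cells (312, interval 3.66 to 4.56), 3.86% of aged cells (115, 3.20 to 4.62) and 2.80% of metformin cells (105, 2.29 to 3.38). Members were accordingly 81.1% of the class in young, 43.3% (36.4 to 50.5) in aged and 56.6% (50.1 to 62.9) in metformin ovaries. Counted against the 12 deposited immune classes, members were 43.4% of young, 7.88% of aged and 6.94% of metformin immune cells. On that base the metformin share was 0.880 times the aged share (0.669 to 1.16), the opposite direction from the share of all cells. Immune classes themselves were 40.4%, 37.5% and 52.6% of cells in the 3 conditions.

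A second deposited class also carried C1q. Of 107 Macrophage II cells, 105 held 5 or more C1q UMIs, and 101 of these came from metformin ovaries, with 34, 37 and 30 in pools A, B and C. Young ovaries gave 3 and aged ovaries 1. That is 2.69% of metformin cells (2.20 to 3.26), 0.0394% of young and 0.0336% of aged cells. Macrophage II cells matched members in C1qa (4899 CPM against 5463), C1qb (5504 against 5387) and C1qc (4022 against 3682). They held little of the other markers, with Pf4 at 17.8 against 1354 CPM, Mrc1 at 19.6 against 510, H2-Aa at 310 against 6453, and Lyz2, lysozyme, at 137 against 7212. The Fc receptor Fcgr4 stood at 3483 CPM in them and 196 in members. Lipg, an endothelial-type lipase, stood at 615 and 1.12, and the chemokine Cxcl13 at 498 and 3.84. Were these cells counted with the members, the metformin share would be 6.34% and 2.12 times the aged share (1.66 to 2.74).

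**Figure D1:**
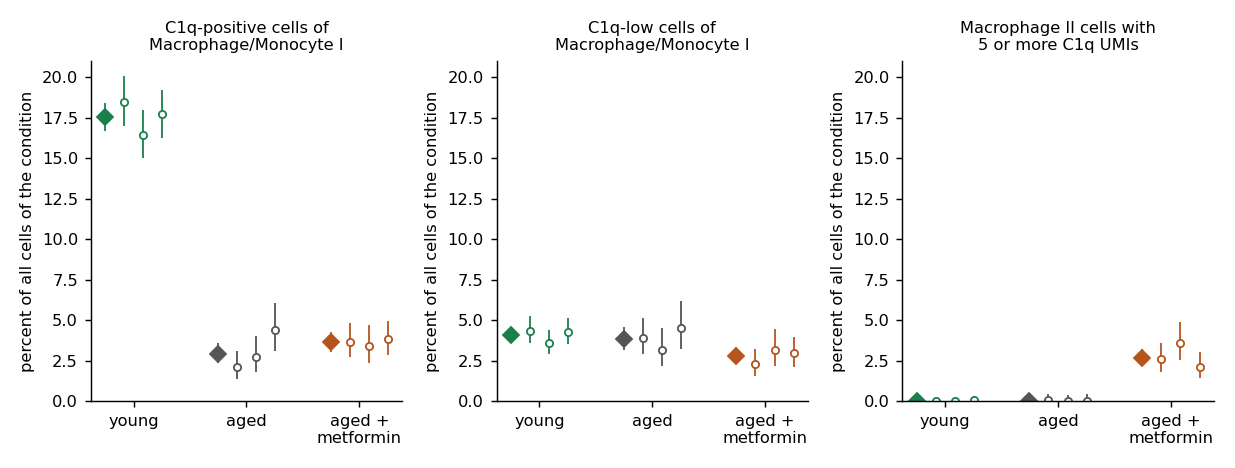
Percent of all cells of a condition that were C1q-positive members (left), C1q-low cells of the same class (middle) and Macrophage II cells with 5 or more C1q UMIs (right). Diamonds are whole conditions, circles are pools A, B and C from left to right, and lines are exact 95% intervals for counting error. Young members sit between 16.4% and 18.5% while aged and metformin members lie below 5%, and Macrophage II cells appear in the metformin condition, where they reached 2.69%.

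Members differed from C1q-low and Dendritic cell I cells by markers of monocytes and dendritic cells. C1q-low cells held more of the monocyte genes Ccr2 (836 CPM against 222 in members), Plac8 (3062 against 60), Ly6c2 (506 against 16.8) and Chil3 (838 against 13.1). They also held more Spp1, osteopontin, at 2849 against 373. Dendritic cell I cells shared high H2-Aa (10380 CPM) with members, but the dendritic cell genes Xcr1 (168 against 1.69), Cd209a (676 against 1.78) and Flt3 (95 against 0.656) were near 0 in members. The rule used only the C1q chains and the deposited class name, and which genes the authors used to name classes is not given. These values are therefore descriptions only.

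The 3 chains kept close to constant proportions. Together they reached 14856 CPM in young, 14686 in aged and 10859.8 in metformin members. The pools stood at 14761, 15321 and 14495 in young, 14819, 14239 and 14988 in aged, and 9726, 11317 and 11925 in metformin cells, so every metformin pool was below every other pool. Of the C1q UMIs, C1qa gave 37.5%, 39.8% and 37.7% in the 3 conditions, C1qb 37.1%, 36.6% and 36.7%, and C1qc 25.4%, 23.6% and 25.7%. UMIs of this 3' assay count molecule ends and need no scaling to gene length. The log2 ratio of metformin over aged was -0.52 (95% interval -0.59 to -0.44) for C1qa, -0.43 (95% interval -0.51 to -0.36) for C1qb and -0.32 (95% interval -0.41 to -0.22) for C1qc. For aged over young the ratios were 0.07, -0.04 and -0.12. Members were chosen by the summed UMIs of these 3 genes, so their levels and ratios are descriptions only.

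MHC class II levels varied widely between cells. The class II genes H2-Aa, H2-Ab1 and H2-Eb1 and the invariant chain Cd74 together took a median of 3.23% of a young member's UMIs. The 10th and 90th percentiles were 0.784% and 5.84%. In aged members the median was 4.82% (2.36% to 6.56%) and in metformin members 2.73% (0.257% to 6.38%). Over all pools the 10th percentile was thus highest in aged cells, but in pool B it was 0.362% in aged and 0.984% in young members. Pool medians were 3.52%, 3.26% and 2.90% in young, 4.89%, 4.07% and 5.14% in aged, and 2.43%, 2.89% and 3.24% in metformin members, and no aged pool median fell among the others. C1q took a median of 1.61%, 1.60% and 1.34%.

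**Figure D2:**
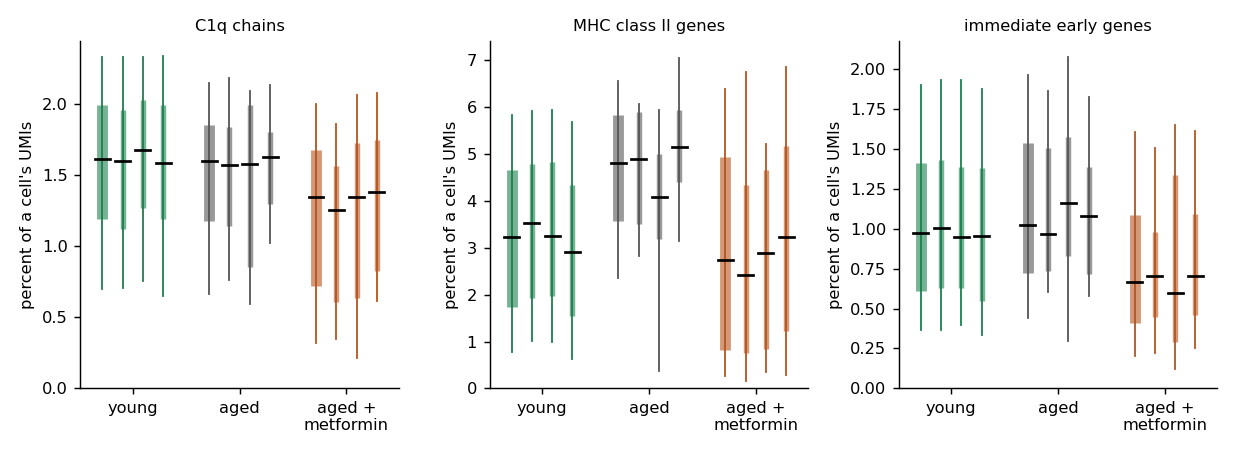
Percent of a member's UMIs that fell on the C1q chains (left), MHC class II genes (middle) and immediate early genes (right), by condition. The class II set is H2-Aa, H2-Ab1, H2-Eb1 and Cd74, and the immediate early set is Fos, Jun, Junb, Egr1, Atf3 and Ier2. In each group the wide box is the whole condition and the narrow boxes are pools A, B and C, black bars are medians over cells, boxes run from the 25th to the 75th percentile and lines from the 10th to the 90th. The aged MHC class II median of 4.82% lies above the young (3.23%) and metformin (2.73%) medians, and the metformin immediate early median of 0.666% lies below the young (0.972%) and aged (1.03%) medians.

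The 3 pairs of conditions were compared over all genes, as the log2 ratio of CPM among genes with 50 or more UMIs over both conditions. Of 8925 genes compared between aged and young members, 164 (1.84%) were at least 2-fold higher and 841 (9.42%) at least 2-fold lower, and the median gene was at -0.07. By sign alone 42.7% of the genes were higher and 56.6% lower, and this is the background for each count of list members by direction. For 103 (1.15%) and 254 (2.85%) the 95% interval also left out equality. Of 3422 genes compared between metformin and aged, 105 (3.07%) were at least 2-fold higher and 53 (1.55%) lower, with a median of 0.05, and all of these had intervals without equality. By sign 55.6% were higher and 44.4% lower. Scaling by TMM in place of totals gave 90 and 72. Of 9026 genes compared between metformin and young, 205 (2.27%) were at least 2-fold higher and 462 (5.12%) lower, with a median of 0.01, and 184 (2.04%) and 214 (2.37%) had intervals without equality. By sign 50.9% were higher and 49.1% lower. The aged cells enter the first and the second comparison, so values are set side by side and not correlated. Pool against pool within a condition, the 95% intervals did not include 0 for 9.30% to 12.9% of genes in young, 15.9% to 20.0% in aged and 17.1% to 21.6% in metformin members, so they understate the spread between repeats. Ratios given without a pool can rest on very few UMIs. A count of 0 was set to 3 UMIs over the condition, which makes the ratio a bound.

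Most MHC class II genes were higher in aged members. Of 9 class II genes compared, 8 were higher and 1 lower in aged than young, with a median log2 ratio of 0.51, and none passed the 2-fold limit. Against aged, 8 of 8 were lower with metformin, with a median of -0.64. Cd74, the invariant chain that guides class II through the cell, stood at 13988, 13589 and 11929 CPM in young pools A, B and C, at 21616, 17127 and 21520.0 in aged pools and at 10652, 12455 and 12557 in metformin pools. Every aged pool was above every other pool. The Cd74 ratio was 0.61 (95% interval 0.58 to 0.64) for aged over young and -0.78 (95% interval -0.82 to -0.73) for metformin over aged. H2-Aa, the alpha chain, had pools at 6543, 6696 and 5903 CPM in young, 9378, 7685 and 10109 in aged and 4901, 6098 and 6607 in metformin members, with ratios of 0.51 and -0.65. Its partner H2-Ab1 gave 0.56 and -0.79, and H2-Eb1 gave 0.53 and -0.62. The peptide loading subunit H2-DMb1 gave 0.55 and -0.84. Ciita, the factor that switches class II genes on, stood at 69.3 CPM in young, 85.4 in aged and 74.4 in metformin cells, and its intervals included 0 in both comparisons. For metformin over young the class II median was -0.17, and it was 0.04 when cells were thinned to 1000 UMIs.

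MHC class I showed another pattern. Of 12 class I pathway genes, 10 were lower in aged than young (median -0.23), and all 12 were lower in metformin than young members (median -0.50), 2 of them past 2-fold. H2-K1, a classical heavy chain, stood at 1760.3 CPM in young, 1327 in aged and 1321 in metformin cells, and B2m, the light chain, at 2457 CPM in young, 2138 in aged and 2086 in metformin cells. H2-M2, a nonclassical MHC gene, headed the genes higher in aged members, at 68.4 against 4.38 CPM, with a ratio of 3.96 (95% interval 3.25 to 4.67). Its pools stood at 4.29, 2.63 and 6.21 CPM in young and 109, 57.9 and 42.2 in aged members, without overlap. Metformin pools gave 0, 258 and 31.3, which lie on both sides of the aged pools, and 1 cell held 77.4% of the metformin UMIs. Without pool C the aged over young ratio of H2-M2 was 4.57.

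Chemokines split into groups. Of 17 chemokine genes, 6 were higher and 11 lower in aged than young members, 1 and 6 of them past 2-fold, with a median of -0.62, which was -1.29 without pool A. With metformin against aged, 12 of 16 were higher and 4 lower, 5 and 3 past 2-fold, with a median of 0.82. Against young the median was 0.10.

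Ccl3, Ccl4 and Cxcl2 were among the chemokines higher in aged cells. Ccl3, which draws monocytes and T cells, had pools at 528, 536 and 601 CPM in young, 1205, 958 and 1761 in aged and 677, 501 and 542 in metformin members. Aged pools were above all others. The Ccl3 ratio was 1.25 (95% interval 1.13 to 1.37) for aged over young and -1.17 (95% interval -1.34 to -0.99) for metformin over aged. Ccl4, its close relative, stood at 1808 CPM in young, 3516 in aged and 1207 in metformin cells, with ratios of 0.96 and -1.54. Cxcl2, a neutrophil chemoattractant, stood at 1608 CPM in young, 2647 in aged and 1130.5 in metformin cells, with ratios of 0.72 and -1.23, and its pools did not overlap in either comparison.

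Interferon-induced chemokines of the Cxcr3 receptor and Ccl8 were lower in aged cells. Ccl8, a ligand that recruits monocytes and T cells, had pools at 219, 240.4 and 203 CPM in young, 47.7, 12.9 and 12.1 in aged and 379, 258 and 900.2 in metformin members. No aged pool reached another pool. The ratio was -3.23 (95% interval -4.24 to -2.39) for aged over young, 4.49 (95% interval 3.63 to 5.50) for metformin over aged and 1.26 (95% interval 1.10 to 1.40) for metformin over young. Without pool A the first was -4.15 and the second 5.67, and without pool C the second was 3.49. Ccl8 had a UMI in 23.6% (9.82% thinned) of young, 6.82% (2.30% thinned) of aged and 25.5% (14.5% thinned) of metformin members, against 0.205% (0% thinned) of T cell/NKT cells. Thinned shares come from cells drawn down to 1000 UMIs, which left out 13 young, 1 aged and 6 metformin members with fewer.

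Cxcl9 had 973 UMIs in young, 2 in aged and 326 in metformin members. Its pools stood at 120.2, 115 and 75.8 CPM in young, 0, 6.43 and 6.03 in aged and 453, 175 and 452 in metformin members, and the aged pools lay below all others. The Cxcl9 ratio was -4.60 (95% interval -7.65 to -2.75) for aged over young and 6.49 (95% interval 4.63 to 9.55) for metformin over aged. Few cells carried it, with a UMI in 4.26% of young, 2.27% (0.276% to 7.97%) of aged and 6.57% of metformin members. These were 57, 2 and 9 cells, and the aged interval held both other shares. The ratios count UMIs and not cells, and 1 metformin cell held 43.3% of the metformin UMIs. The metformin over young ratio of 1.89 was 1.24 without that cell. Cxcl10, induced by the same signal, stood at 162 CPM in young, 34.2 in aged and 319 in metformin cells, with ratios of -2.24 and 3.22. Without pool A these were -3.64 and 4.37, and without pool C the second was 2.48. For Cxcl9 the values were -3.94 and 5.76 without pool A, and 7.14 for the second without pool B. Cxcl10 had a UMI in 12.6% of young, 7.95% (3.26% to 15.7%) of aged and 12.4% of metformin members. A single cell held 50% of the 16 aged Cxcl10 UMIs and another 32.6% of the metformin UMIs. Without these top cells its ratios were -3.06 and 3.64, and in pool A alone aged over young was -0.44.

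The Ccr2 ligands were less uniform. Ccl7 pools stood at 784, 598 and 639 CPM in young, 402, 161 and 78.4 in aged and 832, 399 and 389 in metformin members. Aged pool A reached the metformin range, and no aged pool reached a young pool. The ratio was -1.71 (95% interval -2.01 to -1.42) for aged over young and 1.48 (95% interval 1.16 to 1.81) for metformin over aged. Ccl2 stood at 746 CPM in young, 496 in aged and 906 in metformin cells, and Ccl12 at 673 CPM in young, 442 in aged and 725 in metformin cells. Aged pools A, B and C stood at 974, 334 and 223 CPM for Ccl2 and 1069, 206 and 109 for Ccl12. Pool A thus lay above the young level of both genes and the other pools below. Ccl5 was at 152 CPM in young, 27.8 in aged and 54.3 in metformin cells, Ccl6 at 614 CPM in young, 399 in aged and 789 in metformin cells and Pf4 at 1390.1 CPM in young, 756 in aged and 1284 in metformin cells. Pf4 pools were 1326, 1399.6 and 1449 in young, 1171, 521 and 609 in aged and 1314, 1007 and 1446 in metformin members, with every aged pool below every young pool, while metformin pools overlap both.

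Most inflammatory cytokine genes compared were higher in aged members. Of 14 inflammatory cytokine genes 10 were higher in aged than young members (median 0.21), none past 2-fold. With metformin 9 of 12 were lower than in aged members, with a median of -0.36. When cells were thinned only 3 genes of the list could be compared, with a median of 0.08. Tnf, tumour necrosis factor, had pools at 110.4, 92.1 and 92.8 CPM in young, 191, 161 and 235 in aged and 34.0, 34.0 and 45.2 in metformin members. These ranges did not overlap. The Tnf ratio was 0.99 (95% interval 0.67 to 1.30) for aged over young, -2.38 (95% interval -3.01 to -1.78) for metformin over aged and -1.38 (95% interval -1.94 to -0.88) for metformin over young. It had a UMI in 30.9% (8.53% thinned) of young, 47.7% (12.6% thinned) of aged and 16.1% (5.34% thinned) of metformin members, and in 6.36% (3.42% thinned) of T cell/NKT cells. Il1b, interleukin 1 beta, stood at 781 CPM in young, 1233 in aged and 752 in metformin cells, with ratios of 0.66 and -0.71. Il1rn, which blocks the same receptor, stood at 21.6 CPM in young, 23.5 in aged and 62.6 in metformin cells, with 1.41 (95% interval 0.46 to 2.50) for metformin over aged. Tnfaip3, an inhibitor of the NF-kappaB pathway, stood at 108 CPM in young, 124 in aged and 62.6 in metformin cells.

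**Figure D3:**
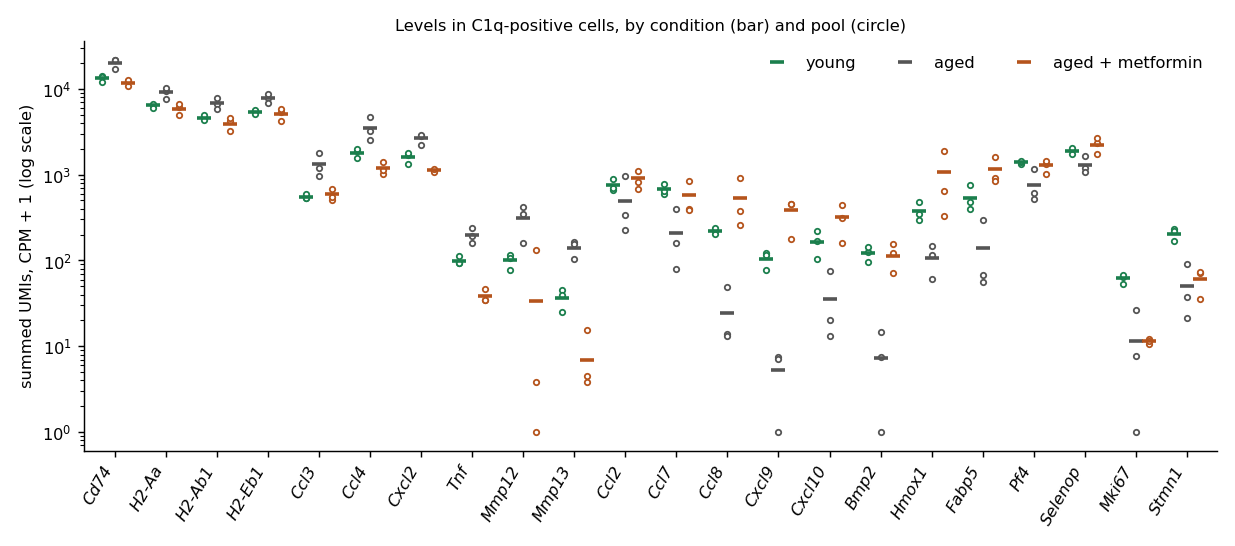
Summed UMIs of members as CPM plus 1, on a log axis, for genes of antigen presentation, chemokines, proteases, metabolism and division. Bars are conditions and circles are pools A, B and C. Aged bars stand above the others for Cd74 to Mmp13 and below them for Ccl2 to Selenop, with Ccl8 at 23.5 CPM in aged against 221 in young members.

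Mmp12 and Mmp13, matrix-cutting proteases of macrophages, were higher in aged members. Mmp12, the macrophage elastase, had pools at 116, 106 and 75.8 CPM in young, 157, 418 and 344 in aged and 2.83, 131 and 0 in metformin members. Aged pools lay above young pools, and metformin pool B lay above every young pool. The ratio was 1.64 (95% interval 1.37 to 1.89) for aged over young and -3.23 (95% interval -3.87 to -2.64) for metformin over aged. A top cell held 35.9% of the aged and 78.6% of the metformin UMIs. Without each gene's top cell in either condition the ratios were 1.29 and -4.81, and without pool B the second was -7.36, from 1 metformin UMI, without pool C -2.54.

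Mmp13, which cuts fibrillar collagen and whose promoter is printed above, had pools at 23.9, 44.7 and 38.6 CPM in young, 163, 154 and 103 in aged and 2.83, 14.6 and 3.48 in metformin members. None of these ranges overlap. The Mmp13 ratio was 1.97 (95% interval 1.56 to 2.36) for aged over young and -4.56 (95% interval -6.23 to -3.26) for metformin over aged, the latter from 5 UMIs, and without pool B the latter was -5.39. Mmp13 had a UMI in 9.80% (3.32% thinned) of young, 26.1% (11.5% thinned) of aged and 2.92% (0% thinned) of metformin members. The thinned metformin share of 0 of 131 cells allows up to 2.29%. None of 975 T cell/NKT cells had a Mmp13 UMI, which allows up to 0.308%. For Mmp12 the shares were 5.83% (2.49% thinned), 23.9% (11.5% thinned) and 2.92% (0.763% thinned). Of 16 proteases and inhibitors compared with age, 7 were higher and 9 lower, so most of the list was not higher. Mmp9, a gelatinase, stood at 24.1 CPM in young, 15.0 in aged and 68.5 in metformin cells, and Mmp14, a membrane-bound collagenase, at 47.4 CPM in young, 74.8 in aged and 66.2 in metformin cells.

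Growth factors and matrix genes held some members with few aged UMIs. Bmp2, a ligand of the TGF-beta family, had 1124 UMIs in young, 3 in aged and 95 in metformin members. Pools A, B and C stood at 95.4, 123 and 143 CPM in young, 13.6, 6.43 and 0 in aged and 70.8, 122 and 156 in metformin members. No aged pool reached a pool of the other conditions. The Bmp2 ratio was -4.23 (95% interval -6.51 to -2.68) for aged over young and 4.13 (95% interval 2.54 to 6.43) for metformin over aged. These were -5.42 and 5.51 without pool A, and -3.45 and 3.17 without pool C. Igf1, a growth factor, stood at 313 CPM in young, 171 in aged and 236 in metformin cells, with a ratio of -0.87 (95% interval -1.21 to -0.55) for aged over young. Pdgfb, a platelet-derived growth factor chain, stood at 87.7 CPM in young, 158 in aged and 59.1 in metformin cells, with ratios of 0.85 and -1.42. The receptor Tgfbr1 stood at 148 CPM in young, 312 in aged and 125 in metformin cells, with 1.07 (95% interval 0.81 to 1.32) for aged over young, which was 0.84 without pool C, and -1.32 (95% interval -1.69 to -0.95) for metformin over aged.

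Fn1, fibronectin, and Spp1 rested on few cells or pools. Fn1 pools stood at 25.2, 8.55 and 8.49 CPM in young, 0, 0 and 229 in aged and 399, 29.2 and 142 in metformin members. All aged Fn1 UMIs came from pool C. Its metformin over young ratio was 3.96 (95% interval 3.63 to 4.29). Spp1 pools stood at 295, 324 and 301 CPM in young, 20.4, 424 and 2189 in aged and 1050.5, 618 and 633 in metformin members, and 1 aged cell held 79.6% of the aged UMIs. The Spp1 ratio for metformin over young was 1.39 (95% interval 1.27 to 1.51). Both genes were higher in C1q-low cells than in members, with Spp1 at 2849 CPM there. Of 13 growth factor and matrix genes compared between metformin and aged members, 7 were higher, with a median of 0.34 that was -0.32 without pool A.

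Most iron and haem genes compared were higher with metformin than in aged members. Of 11 iron and haem genes 9 were higher and 2 lower, 3 past 2-fold, with a median of 0.49. Against young 12 of 14 were higher (median 0.45), and 9 of 14 were lower in aged than young (median -0.20), close to the 56.6% of all genes. The list summed to 32758, 34737 and 33799 CPM in young, 28024, 33205 and 27684 in aged and 52928, 43268 and 31322 in metformin pools. Metformin pool C was below every young pool and below aged pool B. Hmox1, which breaks haem down, had pools at 344, 478 and 295 CPM in young, 116, 148 and 60.3 in aged and 1897, 647 and 327 in metformin members. Aged pools were below all others. The ratio was -1.80 (95% interval -2.23 to -1.40) for aged over young and 3.31 (95% interval 2.90 to 3.75) for metformin over aged. Hmox1 had a UMI in 56.8% (19.2% thinned) of young, 42.0% (9.20% thinned) of aged and 56.2% (27.5% thinned) of metformin members, against 0.718% of T cell/NKT cells.

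A single metformin cell weighed on this group. It came from pool A, had 38071 UMIs, the most of any member, and 133 C1q UMIs, and it held 35.1% of the metformin Hmox1 UMIs, 39.4% of Gclm, 30.5% of Slc40a1 and 48.6% of Col1a2, a collagen gene of fibroblasts. The same cell held 31.1% of the metformin UMIs of Fcna, 22.7% of Dcn, 21.4% of Clec4n and 18.4% of Fabp5. Whether it is a doublet was not tested. Without the top cell of each gene the Hmox1 ratio of metformin over aged was 2.85 and that of metformin over young 1.03, from 1.51. Without pool A they were 2.16 and 0.25, so the difference from young rests on pool A. Slc40a1, the iron exporter ferroportin, stood at 169 CPM in young, 113 in aged and 345 in metformin cells, with 1.61 for metformin over aged and 1.31 without the top cell. The ferritin chains Fth1 and Ftl1, which store iron, gave 0.49 and 0.61, from metformin pools at 31344, 27239 and 18230.0 CPM for Fth1 and aged pools at 17394, 20419 and 17630.0.

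Of 15 antioxidant genes compared, 10 were higher with metformin than in aged members, where 55.6% of all genes were higher. Of these 4 were past 2-fold, and the median was 0.59. The list summed to 7407, 7160 and 7433 CPM in young and 6620, 6656 and 6200 in aged pools. Metformin pools stood at 11190, 9123 and 7111 CPM, so pool C was above every aged pool but below every young pool. Against young the count was 13 of 18, with a median of 0.36, and aged over young gave 13 of 18 lower, with -0.33. Gclm, a subunit of the enzyme that starts glutathione synthesis, had pools at 85.9, 73.3 and 72.9 CPM in young, 27.2, 32.2 and 18.1 in aged and 306, 219 and 59.1 in metformin members. Metformin pools A and B lay above every young pool and pool C below. The Gclm ratio of metformin over aged was 2.97 (95% interval 2.13 to 3.95), 2.34 without pool A and 2.56 without the top cell. Prdx1, a peroxidase, stood at 1665 CPM in young, 1327 in aged and 2365 in metformin cells, Txnrd1, thioredoxin reductase, at 94.8 CPM in young, 64.1 in aged and 148 in metformin cells, and Gpx4, which repairs lipid peroxides, at 383 CPM in young, 269 in aged and 441 in metformin cells. Nfe2l2, the factor known to drive several of these genes, stood at 336 CPM in young, 421 in aged and 297 in metformin cells, with -0.51 (95% interval -0.78 to -0.23).

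Lipid genes differed member by member. Of 19 compared, 14 were lower in aged than young members (median -0.22). Fabp5, a fatty acid carrier, had pools at 397, 479 and 748 CPM in young, 54.5, 296 and 66.3 in aged and 1588, 899.7 and 848 in metformin members. Every aged pool was below, and every metformin pool above, every young pool. The ratio was -1.95 (95% interval -2.33 to -1.60) for aged over young and 3.07 (95% interval 2.71 to 3.46) for metformin over aged. Without pool B these were -3.22 and 4.37, without pool C the first was -1.29, and without pool A the second was 2.29. Fabp5 had a UMI in 36.3% (14.2% thinned) of young, 23.9% (6.90% thinned) of aged and 47.4% (22.9% thinned) of metformin members and in 6.15% of T cell/NKT cells. Apoe, the lipid carrier, stood at 21408 CPM in young, 20048 in aged and 15042 in metformin cells. Trem2, a lipid-sensing receptor, stood at 579 CPM in young, 352 in aged and 387 in metformin cells, Abca1, the cholesterol exporter, at 306 CPM in young, 184 in aged and 228 in metformin cells, and Lpl, lipoprotein lipase, at 519.7 CPM in young, 333 in aged and 327 in metformin cells. Plin2, which coats lipid droplets, stood at 565 CPM in young, 707 in aged and 378 in metformin cells, with ratios of 0.32 and -0.90, opposite in sign to those of Fabp5. Ch25h, which makes an oxysterol, stood at 12.9 CPM in young, 42.7 in aged and 3.54 in metformin cells, and its aged over young ratio of 1.72 became -0.07 when cells were thinned.

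Lysosomal genes were balanced as a list, with 15 higher and 15 lower of 30 with age (median -0.04). Within it, cathepsins differed. Ctsd, an aspartic protease of the lysosome, had pools at 1563, 1784 and 1782 CPM in young, 586, 1164 and 736 in aged and 1968, 1206 and 1453 in metformin members. Aged pools were below all others. The ratio was -1.04 (95% interval -1.19 to -0.89) for aged over young and 0.95 (95% interval 0.79 to 1.12) for metformin over aged. Ctss, which trims the invariant chain of class II, stood at 2562 CPM in young, 3166 in aged and 2228 in metformin cells, with 0.31 and -0.51. Ctse, a related aspartic protease, had 326 young UMIs and none in aged or metformin members. Set against 3 UMIs over the condition, the ratio was at most -2.44 for aged and at most -3.30 for metformin over young. With 1 pool left out the bounds reached -1.82 without pool C and -2.46 without pool A, because fewer UMIs stood against the same 3.

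Genes that mark resident macrophages were mostly lower in aged members. Of 16 compared, 12 were lower and 4 higher, 3 past 2-fold, with a median of -0.59. With metformin 11 of 13 were higher than in aged members, with a median of 0.47. Pf4 gave -0.88 (95% interval -1.03 to -0.73) for aged over young and 0.76 (95% interval 0.59 to 0.94) for metformin over aged. Selenop, which carries selenium, stood at 1904 CPM in young, 1286 in aged and 2206 in metformin cells, with ratios of -0.57 and 0.78. Gas6, a bridge between dying cells and the Tyro3, Axl and Mertk receptors, stood at 136 CPM in young, 61.9 in aged and 137 in metformin cells, with -1.13 and 1.15. Mrc1 was lower than in young in both, at -0.62 for aged and -0.63 for metformin over young. Ms4a7 was higher in aged members, at 0.29. Pools of Mrc1 were 531, 518 and 551 CPM in young, 511, 302 and 247 in aged and 309, 326 and 399.7 in metformin members, so aged pool A came close to the young pools.

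Scavenging and efferocytosis genes gave no shared direction, with 7 higher and 8 lower of 15 with age. Mertk, a receptor for dying cells, stood at 52.9 CPM in young, 89.7 in aged and 80.3 in metformin cells, and Cd36, a scavenger receptor, at 333 CPM in young, 205 in aged and 256 in metformin cells. Alternative activation genes had a median of -0.61 for aged over young and 0.78 for metformin over aged, the latter 0.11 without pool C. Against young the median was 0.75 over 11 genes. It was -0.33 over the 6 compared when cells were thinned and -0.36 over the 7 with 200 or more UMIs. Clec10a, a lectin for galactose sugars, stood at 101 CPM in young, 66.2 in aged and 221 in metformin cells, with 1.74 (95% interval 1.18 to 2.34) for metformin over aged, and its relative Mgl2 stood at 430.0 CPM in young, 312 in aged and 571 in metformin cells. Arg1, arginase, had 36, 0 and 47 UMIs, and metformin pools stood at 51.0, 4.86 and 97.3 CPM.

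Monocyte genes were higher with metformin than in aged members for 9 of 10 compared, 5 past 2-fold, with a median of 1.03. The genes that define classical monocytes were not among them, since Ly6c2 stood at 17.7 CPM in young, 10.7 in aged and 9.45 in metformin cells and Ccr2 at 216 CPM in young, 271 in aged and 265 in metformin cells. S100a4 and S100a6, calcium-binding proteins of motile cells, stood at 100.0 CPM in young, 81.2 in aged and 250.4 in metformin cells, and at 278 CPM in young, 222 in aged and 535 in metformin cells. Thbs1, thrombospondin, stood at 83.0 CPM in young, 59.8 in aged and 170.1 in metformin cells. Lyz2 stood at 7134 CPM in young, 6351 in aged and 8549 in metformin cells, with 0.43 for metformin over aged. Lgals1, a galectin that is not in the list, stood at 864 CPM in young, 423 in aged and 983 in metformin cells, with 1.22 (95% interval 0.99 to 1.45), which was 0.997 without pool A.

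Most respiratory chain genes compared were slightly higher with metformin than in aged members. Of 34 nuclear genes of complex I, 31 were higher, 1 past 2-fold, with a median of 0.22, where 55.6% of all genes were higher. For 8 the interval lay above equality. The list summed to 6948, 6573 and 7420 CPM in young and 5571, 5544 and 6737 in aged pools. Metformin pools stood at 7215, 6205 and 7170 CPM, each above the aged level of the same pool. Metformin pool B was below aged pool C. With age 30 of 36 were lower (median -0.23), and metformin over young gave 17 higher and 19 lower (median -0.02). Mitochondrially encoded genes gave 12 of 12 higher for metformin over aged (median 0.33) and 13 of 13 higher for metformin over young (median 0.15). Their summed level was 19944, 26893 and 20356 CPM in young pools A, B and C, 19729.5, 22233 and 16978 in aged and 22006, 30026 and 24027 in metformin pools. Pool B was the highest in every condition and the ranges overlap, while within each pool the order was metformin, young and aged. Ndufc1 and Ndufv3, subunits of complex I, stood at 249 CPM in young, 152 in aged and 243 in metformin cells, and at 211 CPM in young, 128 in aged and 185 in metformin cells.

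Most glycolysis genes compared were lower in aged members, with 13 of 17 lower in aged than young (median -0.42) and 8 of 10 higher with metformin than in aged members (median 0.41), none past 2-fold. The listed genes summed to 1891, 1837 and 1874 CPM in young, 1430.2, 1640.0 and 1737 in aged and 2305, 1959.9 and 1731 in metformin pools A, B and C, so metformin was the lowest of the 3 in pool C. For metformin over young the median was -0.02. Pgk1 and Pgam1, enzymes of the lower pathway, stood at 123 CPM in young, 85.4 in aged and 163 in metformin cells, and at 203 CPM in young, 139 in aged and 224 in metformin cells. Genes of energy stress gave a median of 0.28 with age over 12 genes and -0.40 for metformin over aged over 6. The catalytic subunit gene of AMPK, Prkaa1, stood at 8.97 CPM in young, 8.54 in aged and 5.91 in metformin cells, from 84, 4 and 5 UMIs, and no difference was detectable at this depth. Ddit3, a factor of the stress response, stood at 43.2 CPM in young, 70.5 in aged and 30.7 in metformin cells. Cholesterol synthesis genes had too few UMIs to be compared between metformin and aged members, and gave a median of 0.03 with age.

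Most interferon response genes compared were lower in aged and in metformin than in young members. With age 14 of 20 were lower, 7 past 2-fold (median -0.39), where 56.6% of all genes were lower, and for metformin over young 17 of 20 were lower, 5 past 2-fold (median -0.44). Rsad2, an antiviral enzyme, stood at 52.9 CPM in young, 12.8 in aged and 13 in metformin cells, and Ifit2, which binds foreign RNA, at 51.8 CPM in young, 21.4 in aged and 7.09 in metformin cells. Ifi27l2a had pools at 1570.3, 1456 and 1539 CPM in young, 1321, 1003 and 1297 in aged and 659.7, 525 and 608 in metformin members. Metformin pools were below all others for this gene. Iigp1, an interferon-induced GTPase, stood at 64.4 CPM in young, 2.14 in aged and 44.9 in metformin cells, the aged value from 1 UMI, with a ratio of -4.91 (95% interval -10.22 to -2.43), or -4.30 without pool B and at most -2.71 without pool C. Gbp2, another such GTPase, stood at 30.2 CPM in young, 10.7 in aged and 69.7 in metformin cells, with metformin pools at 127, 9.73 and 41.7 CPM.

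Few receptors and transcription factors of macrophages passed 2-fold. Csf1r, the receptor on which macrophages depend, stood at 641 CPM in young, 579 in aged and 731 in metformin cells. Of 15 growth factor and cytokine receptors 10 were higher with age (median 0.19), among them Csf2ra, a GM-CSF receptor chain, at 56.5 CPM in young, 115 in aged and 62.6 in metformin cells. Of 20 transcription factors 15 were higher with age (median 0.13), none past 2-fold. Spi1, which binds the motif marked above in C1qb and C1qc, stood at 395 CPM in young, 517 in aged and 397 in metformin cells. Nr1h3, the LXR-alpha sterol receptor, stood at 24.9 CPM in young, 27.8 in aged and 72.1 in metformin cells, with 1.53 (95% interval 1.10 to 1.95) for metformin over young. Klf2, a factor that restrains inflammation, stood at 1759 CPM in young, 1931 in aged and 1052 in metformin cells, with -0.88 for metformin over aged. Fc receptor genes had medians of -0.07, -0.12 and -0.19 in the 3 comparisons, the second turning to 0.05 when thinned. Toll-like receptor genes had medians of 0.04, -0.31 and -0.14, and chemokine receptors 0.30, -0.23 and 0.03. Cx3cr1, the fractalkine receptor, stood at 504 CPM in young, 611 in aged and 538 in metformin cells.

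Of 11 complement genes compared between metformin and aged members 4 were higher and 7, the C1q chains among them, lower. The C1q chains are part of the rule that chose the members, so this count is a description only. Cfp, properdin, stood at 198 CPM in young, 113 in aged and 281 in metformin cells, with 1.31 for metformin over aged. C3, the central component, stood at 22.2 CPM in young, 12.8 in aged and 74.4 in metformin cells. Its ratio was 2.54 (95% interval 1.34 to 4.04) for metformin over aged, 3.16 without pool B, and 1.74 for metformin over young, 1.003 without pool C, and 1 cell held 34.9% of the metformin C3 UMIs. Fcna, a ficolin of the lectin pathway, stood at 9.19 CPM in young, 4.27 in aged and 53.2 in metformin cells, with 2.53 for metformin over young, 1.83 without pool A and 3.12 without pool B. The metformin cell with the most UMIs held 31.1% of the metformin Fcna UMIs.

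Immediate early and heat shock genes, which tissue dissociation is known to raise, also differed. With age 14 of 21 were higher (median 0.13), and with metformin 17 of 20 were lower than in aged members (median -0.46). Their summed level was 18672, 18827 and 18209.6 CPM in young, 21418, 21339 and 20296 in aged and 14435, 14993 and 15480.5 in metformin pools, and every metformin pool was below the rest. Atf3, a stress-induced factor, had pools at 1637, 1531 and 1570.1 CPM in young, 2166, 1974 and 2256 in aged and 940.0, 744 and 789 in metformin members. The Atf3 ratio was 0.43 (95% interval 0.34 to 0.53) for aged over young and -1.34 (95% interval -1.48 to -1.20) for metformin over aged. Fos stood at 3815 CPM in young, 4012 in aged and 3022 in metformin cells and Jun at 1408 CPM in young, 1549 in aged and 1047 in metformin cells. Heat shock genes had another order, highest in young cells, with Hspa1a at 378 CPM in young, 171 in aged and 63.8 in metformin cells and Hspa1b at 221 CPM in young, 85.4 in aged and 22.4 in metformin cells. For Hspa1b the ratio was -1.93 (95% interval -2.80 to -1.11) for metformin over aged and -3.30 (95% interval -4.04 to -2.66) for metformin over young. The immediate early values move with Tnf, Cxcl2, Ccl3 and Ccl4, and their part in those differences was not tested.

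Cell cycle genes were lower in both aged conditions. All 23 were lower in aged than young members, 16 past 2-fold (median -1.55), and all 23 in metformin than young, 20 past 2-fold (median -1.79). The listed genes summed to 1341, 1364 and 1518 CPM in young, 422, 785 and 609 in aged and 617, 647 and 622 in metformin pools, without overlap with young. Mki67, found in dividing cells, stood at 60.9 CPM in young, 10.7 in aged and 10.6 in metformin cells, and had a UMI in 10.5%, 3.41% and 4.38% of members and 4.51% of T cell/NKT cells. Top2a, a topoisomerase of dividing cells, had 563 UMIs in young, none in aged and 8 in metformin members. Against 3 UMIs the aged over young ratio was at most -3.23, and at most -2.60 without pool C or -2.64 without pool B. Stmn1, which takes microtubules apart, had pools at 169, 229 and 218 CPM in young, 20.4, 90 and 36.2 in aged and 70.8, 72.9 and 34.8 in metformin members. Its aged over young ratio was -2.06 (95% interval -2.72 to -1.47), and -2.74 without pool B. The ratio of Pclaf, a replication factor, was -3.90 (95% interval -6.95 to -2.04) for aged over young, -2.66 without pool B, from 2 aged UMIs. Deposited phases put 9.72% of young, 5.68% of aged and 11.7% of metformin members in G2M, which does not follow these levels.

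Among senescence genes, Cdkn2a had 11 UMIs in all members together, at 1.03 CPM, while Macrophage II cells stood at 135. Cdkn1a, a brake on division, stood at 256 CPM in young, 186 in aged and 158 in metformin cells. The senescence list had medians of -0.24, -0.04 and -0.23 over 11, 6 and 11 genes.

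Other genes picked by the ranking belong to none of the lists, and some of them rest on few UMIs. Higher in aged than young members were Adrb1, an adrenergic receptor (55.5 against 11.8 CPM, 2.24), Acp5, an acid phosphatase (352 against 116, 1.60), Rasgrp1, a Ras activator (1.84), Galnt3, which starts sugar chains on proteins (2.32), and the corepressor Tle1 (1.64). The noncoding RNA Gas5 (1.11) and the lectin Clec4n (1.04) were under 1 without pool A (0.92) and without pool B (0.97). Smc2, a condensin subunit, and Tk1, thymidine kinase, were lower, at -2.98 (95% interval -5.26 to -1.42) from 3 aged UMIs and at most -1.77 from none. Without pool C the bound of Tk1 was -1.12. Acp5 pools stood at 116, 123 and 110.1 in young, 361, 373 and 326 in aged and 169.9, 229 and 209 CPM in metformin members, in separate ranges.

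Lower with metformin than in aged members were also Runx3, a transcription factor (22.4 against 109 CPM, -2.28), Slamf9, an immune receptor (-1.77), Dusp2, a MAP kinase phosphatase (-1.60), Rgs1, which damps chemokine receptors (-1.27), Olfml3, a secreted glycoprotein (-2.02), and Cd72, an inhibitory receptor (-1.39). Higher with metformin than in young members were Pla2g2d, a secreted phospholipase (2.60), F10, coagulation factor X (2.10), Adgre4, an adhesion receptor (1.79), Cdc42ep2, a Cdc42 effector (1.92), and Fxyd2, a sodium pump subunit (1.61). Lower than in young members were further division genes, Prc1, Tpx2 and Racgap1, which had no metformin UMI, with ratios of at most -2.70, -2.46 and -1.99. Without pool A these bounds were -1.90, -1.82 and -1.29, and without pool C -2.07, -1.83 and -1.35. With 1 metformin UMI each, Cenpf gave -4.41 (95% interval -9.72 to -1.92) and Hells -4.16 (95% interval -9.47 to -1.66). For Cenpf the value was -2.08 without pool A and -3.79 without pool C. For Hells it was -3.42 without pool A, -2.25 without pool B and -3.42 without pool C. For Pclaf it was -2.75, and -3.40 without pool A.

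**Figure D4:**
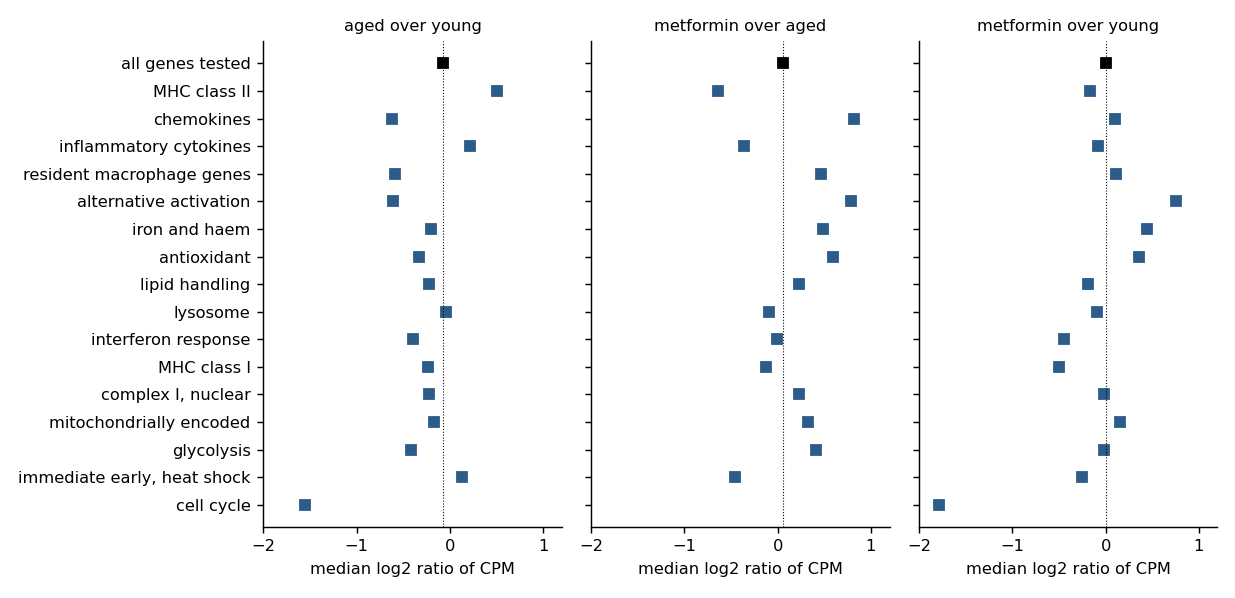
Median log2 ratio of CPM of each gene list in the 3 comparisons of members, with all genes compared as a black square and dotted line. MHC class II lies at 0.51 for aged over young and -0.64 for metformin over aged, and cell cycle at -1.55 and -1.79 against young, and it rests on 3 genes in the middle panel, where it is not drawn.

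The summed level of fibroblast markers in members was 252 CPM in young, 87.6 in aged and 550.5 in metformin cells, with pools at 243, 259.5 and 255 in young, 40.9, 199 and 24.1 in aged and 592, 491 and 542 in metformin members. Metformin pools were above all others, and 4 of 4 marker genes compared were higher than in aged members, and none of the 9 genes of the list was at 0 in any condition. Dcn, decorin, had 1101, 14 and 181 UMIs and Col1a1, a collagen chain, 125, 3 and 54. Theca and luteal markers summed to 201, 72.6 and 128 CPM and granulosa markers to 59.8, 25.6 and 43.7. B cell markers gave 703, 613 and 625, dendritic cell markers 702, 558 and 469, and T cell markers 75.7, 76.9 and 47.3. Neutrophil markers gave 41.8, 25.6 and 33.1. By condition, the fibroblast sum and the iron and haem sum were both highest in metformin and lowest in aged members. Metformin pool C held 542 CPM of fibroblast markers and 31322 of iron and haem genes, the latter below every young pool. Growth factor and matrix genes summed highest in aged pool C, at 3920 CPM, and fibroblast markers were lowest there, at 24.1. For Spp1, 1 aged cell held 79.6% of the aged UMIs. The part of fibroblast RNA in the differences of members was not tested.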

How the data were processed

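Ovarian cells of 3 conditions were labelled with lipid-bound DNA tags (MULTI-seq), mixed, flow sorted and run as 3 pools with 10x 3' chemistry. Per the submitters' processing notes, reads went through Cell Ranger 3.0.2 with GRCm38 (mm10). The authors deposited raw UMI counts of 18789 genes for 14353 cells, per the file headers, and per cell a pool, tag, condition, cell class, cycle phase and percent of mitochondrial UMIs. These deposited percent values reached 20.0, and the lowest deposited total was 500 UMIs. The deposited class, tag and phase columns hold other, non-numeric labels made by the authors. Whether doublets were removed, and how classes were named, are points not given in the sources used here, and no doublet caller was run. All columns of cells were mapped to a pool.

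Counts of members were summed per condition and per pool and divided by their total (CPM). Ratios carry exact 95% intervals conditional on the summed count, and shares carry Clopper-Pearson intervals. Both cover counting error only. With 1 suspension per condition no test was made. Genes with 50 or more UMIs over both conditions were compared, a difference was counted from 2-fold, and a count of 0 was set to 3. Genes named in each comparison were up to 12 per direction, ranked by the interval limit nearest 0, with that limit beyond 0.58 on the log2 scale and 1 sign in every pool with 10 or more members of both conditions. Mitochondrial, ribosomal and haemoglobin genes, unnamed gene models, and genes over 10 times higher in another class were left out, and members of 29 role lists and 14 marker lists with many UMIs were added. Some list genes with fewer UMIs (such as Lyve1, Timd4, Prkaa1, Arg1 and Il1rn) and genes that separate classes were named after their values were seen. Members and lists were chosen with earlier results of these data known. Alternatives were other UMI minimums, TMM scaling (edgeR 4.0.16), means over cells, thinning to 1000 UMIs, each pool left out, each gene's top cell left out, and Macrophage II cells added. The last 2 were chosen after seeing the data. Python 3.11.15, scipy 1.17.1 and R 4.3.3 were used, and the code was tested on simulated data.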

Additional observations from a re-analysis of the deposited data

Results flagged for a closer look

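The Macrophage II class lies outside the rule that chose the members, yet 101 of its metformin cells held 5 or more C1q UMIs, against 3 young and 1 aged cell. It stands out because the C1q signal appears in cells that the comparison of members does not use, and far above the level in the untreated conditions. All 3 metformin pools held such cells, with 34, 37 and 30.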

How the results depend on the processing

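Each condition is 1 suspension of 3 ovaries, so differences between mice, tags and conditions cannot be told apart, and 88 aged and 137 metformin members limit what low genes can show. No paired analysis was possible because the pools repeat the same 3 suspensions and no test was made. With 1 pool left out the member shares ranged from 17.1% to 18.1% in young, 2.40% to 3.53% in aged and 3.54% to 3.75% in metformin cells, and the ratios of shares from 0.138 to 0.207 for aged over young, 1.03 to 1.48 for metformin over aged and 0.203 to 0.213 for metformin over young. Counts of genes at least 2-fold higher and lower then ranged from 167 to 194 and 780 to 904 for aged over young, 74 to 104 and 37 to 46 for metformin over aged, and 188 to 210 and 399 to 521 for metformin over young. Counting every Macrophage class gave a metformin share of 6.34% and ratios of 2.12 and 0.361 to aged and young.

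A minimum of 20 UMIs gave 357 genes higher for aged over young, 375 higher and 135 lower for metformin over aged, and 492 higher for metformin over young. A minimum of 200 gave 33 and 217, 19 and 10, and 48 and 94 in the 3 comparisons, since fewer genes were compared. Thinning to 1000 UMIs gave 356 lower for aged over young, 11 and 13 for metformin over aged, and 71 and 235 for metformin over young. Means over cells gave 249 higher for aged over young, and adding Macrophage II cells gave 263 and 92 for metformin over aged. Of 720 recomputed values of named genes 4 had the opposite sign. They were Ch25h for aged over young (-0.072 thinned), Cd72 for metformin over aged (0.73 with Macrophage II), and Prc1 (0.22) and Tpx2 (0.047) for metformin over young with Macrophage II. Of 927 recomputed list medians 89 had the opposite sign, 82 of them from reported medians under 0.3 in size, whose direction is not fixed by these data. The other 7 were efferocytosis for aged over young (0.011 without pool C, from -0.32 without pool A), inflammatory cytokines for metformin over aged (0.077 thinned), growth factors and matrix for metformin over aged (-0.19 at 200 UMIs, -0.078 with Macrophage II, from -0.32 without pool A to 0.52 without pool B), and alternative activation for metformin over young (-0.36 at 200 UMIs, -0.33 thinned). Thinning and the 200 UMI minimum left fewer genes to compare, such as 3 inflammatory cytokine genes in place of 12. The cause of these shifts was not tested. Leaving out each gene's top cell kept the sign of 72 of 72 named values, which the same choice of genes made likely.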
